A study of Homo sapiens with 12 samples.

Results

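The RNA exosome core subunits examined here are the 10 genes EXOSC1 to EXOSC10, chosen by name as the structural subunits of the complex and the nuclear nuclease EXOSC10, out of 54628 genes in the count table. All 10 had counts in every library, and all 10 were among the 15492 genes that passed the filter on low counts. The choice of members used no measured value, although it was made with earlier results of these data known.

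The RNA exosome is a complex that degrades or trims RNA from its 3′ end in the nucleus and the cytoplasm. In human cells its core is catalytically inactive: a ring of RNase PH-like subunits (EXOSC4 to EXOSC9) carries a cap of S1 and KH domain subunits (EXOSC1, EXOSC2 and EXOSC3), and the channel through ring and cap leads RNA to a nuclease. The nucleases are DIS3 and DIS3L, which bind at the base of the ring, and EXOSC10, which sits near the cap in the nucleus. In erythroid precursors the exosome is known to hold back maturation and to sustain signalling through the receptor Kit, and the erythroid factors GATA1 and FOXO3 are known to repress genes of the complex during maturation.

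RNA was measured in HUDEP-2 cells, an immortalised erythroid precursor line derived from human umbilical cord blood that depends on the Kit ligand, stem cell factor (SCF). All cells were transduced with a lentivirus carrying dCas9-KRAB (a nuclease-dead Cas9 fused to a repressor domain), EGFP and a guide, and were sorted for GFP, so each group is a pool of transduced cells of this line. The guide was a scrambled control (sgControl) or sgEGR1, which directs repression to an element upstream of EGR1, an SCF-induced transcription factor. All cells were expanded with SCF, EPO, dexamethasone and doxycycline, kept without growth factors for 5 h, and then given PBS or 50 ng/mL SCF for 1 h. This gave 4 groups (sgControl PBS, sgControl SCF, sgEGR1 PBS and sgEGR1 SCF) of 3 libraries each, described by the study as biological replicates. The comparisons ask whether exosome transcripts respond to Kit activation within 1 h, and whether the guide at EGR1 alters their level or their response.

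Library totals ranged from 23.5 to 32.04 megacounts, and expression is given as CPM, counts per megacount of library total after TMM scaling. EGR1, whose element was targeted, measured 5.99 to 10.9 CPM in sgControl PBS and 0.977 to 2.04 CPM in sgEGR1 PBS. After SCF it measured 171 to 239 CPM in sgControl cells, and 40.4, 57.4 and 203.6 CPM in the 3 sgEGR1 libraries, so the library labelled sgEGR1 SCF replicate 3 stood at the control level. In each group, replicate 1 was separated from the other replicates, with scores on the first principal component (23% of the variance) from -23.2 to -15.2 against 4.26 to 15.7. All 12 erythroid markers examined passed the filter on low counts, with sums of 12641 to 15669 CPM. One of them, HBG1, was at 0 in sgControl PBS replicate 1. Of 10 markers of other cell types, CD3E, MPO and PF4 were at 0 in every library and 3 passed the filter (PTPRC, ITGA2B and EPCAM), with sums over the list of 173 to 239 CPM.

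The promoters of 3 members are shown because their transcripts differ in the results below: EXOSC2 and EXOSC7 rose with SCF, and EXOSC10 had lower values that missed the test. Each is the RefSeq window (GRCh38.p14) from 250 bases before to 50 bases after the annotated start, printed 5′ to 3′ on the strand of the gene. Windows of 8 of the 10 members were searched. EXOSC1 had no window in the source used, and EXOSC4 was left out of the search. Capitals mark matches to AANATGGC, the core of the YY1 motif, and to TGACGT, part of the site bound by CREB and ATF factors.
EXOSC2: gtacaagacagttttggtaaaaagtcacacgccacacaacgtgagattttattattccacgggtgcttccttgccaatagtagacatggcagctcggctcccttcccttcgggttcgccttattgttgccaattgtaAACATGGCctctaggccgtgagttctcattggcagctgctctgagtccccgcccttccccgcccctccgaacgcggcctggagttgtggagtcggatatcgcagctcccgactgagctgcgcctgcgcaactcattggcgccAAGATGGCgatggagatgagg
EXOSC7: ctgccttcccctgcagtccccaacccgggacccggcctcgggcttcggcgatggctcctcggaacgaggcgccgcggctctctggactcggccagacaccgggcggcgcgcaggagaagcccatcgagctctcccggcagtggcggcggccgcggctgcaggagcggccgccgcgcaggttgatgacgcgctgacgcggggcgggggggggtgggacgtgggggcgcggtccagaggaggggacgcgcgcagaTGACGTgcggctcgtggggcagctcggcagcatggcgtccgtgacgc
EXOSC10: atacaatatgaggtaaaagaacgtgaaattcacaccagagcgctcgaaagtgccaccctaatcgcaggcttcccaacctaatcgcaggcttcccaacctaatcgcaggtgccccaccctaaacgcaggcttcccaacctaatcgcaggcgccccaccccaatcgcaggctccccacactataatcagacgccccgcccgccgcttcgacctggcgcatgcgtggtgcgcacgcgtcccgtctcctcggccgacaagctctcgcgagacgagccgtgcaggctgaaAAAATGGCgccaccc

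The EXOSC2 window lies on the plus strand at chr9:130693510-130693809, the EXOSC7 window on the plus strand at chr3:44975994-44976293 and the EXOSC10 window on the minus strand at chr1:11099820-11100119. EXOSC2 held AANATGGC at positions -113 and 30 from the start, and EXOSC10 held it at position 36, while EXOSC7 held TGACGT at position 4. On both strands of the 8 windows, AANATGGC occurred in EXOSC2, EXOSC8 and EXOSC10, beside 6.82% of all 27305 promoter windows. TGACGT occurred in EXOSC7 and EXOSC9, beside 8.32% of all windows. CACGTG, the E-box bound by MYC, occurred in EXOSC5 (7.43% of all windows), and the AP-1 motif TGANTCA occurred in EXOSC8 (7.76%). The letters GCGTGGG for EGR factors (6.74% of all windows), CCGGAAG for ETS factors (10.7%) and AGATAAG for GATA factors (2.63%) were in 0 of the 8 windows. These are matches of letters, not binding sites.

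EXOSC10, the nuclear nuclease, ranged from 175.9 to 196.8 CPM over the 12 libraries, and its median coefficient of variation within a group, 2.47%, was the lowest of the 10 members. EXOSC9, a ring subunit, measured 66.2 to 82.6 CPM, and EXOSC8, also of the ring, 48.4 to 61.7 CPM. The cap subunits EXOSC1, EXOSC2 and EXOSC3 and the ring subunits EXOSC5, EXOSC6 and EXOSC7 had means between 27.1 and 33.9 CPM. EXOSC4, a ring subunit, measured 11.4 to 17.5 CPM. These CPM values are not divided by length and set no order between the members. Counts per library went from 294 for EXOSC4 to 5856 for EXOSC10. EXOSC6 had the largest ratio of the highest to the lowest library, 1.56 (22.2 to 34.7 CPM), and both extremes came from sgControl SCF (34.7, 28.9 and 22.2 CPM in replicates 1 to 3). The median coefficient of variation within a group was 6.91% for EXOSC6, below that of EXOSC8 (8.59%) and EXOSC3 (7.14%). The 10 members together took 499 to 537 CPM of each library.

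Levels were compared between members only per length, as CPM per kb of merged annotated exons. EXOSC10 stood first at 31.3 ± 1.2 CPM per kb (SD, n = 12) and EXOSC9 next at 15.8 ± 0.888, and neither range overlapped that of the next member. EXOSC4 (10.8), EXOSC1 (9.46) and EXOSC5 (8.66) followed with neighbouring ranges that overlapped. EXOSC7 (6.84), EXOSC6 (5.26), EXOSC8 (4.18), EXOSC3 (4.14) and EXOSC2 (3.72) came last, and each overlapped its neighbour, while EXOSC5 and EXOSC7 did not overlap. On this length the other nucleases lay among the ring and cap subunits, DIS3L at 9.996 ± 0.839 CPM per kb and DIS3 at 7.97 ± 0.268.

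This order rested on the gene model, since merged exons include rare transcripts and long alternative ends. With the length of the MANE Select transcript, chosen as an alternative after seeing the data, EXOSC10 was still first at 67.0 ± 2.58 CPM per kb, EXOSC8 moved from eighth to second (47.0 ± 3.42) beside EXOSC9 (46.8 ± 2.64), and EXOSC6 moved to last (5.26 ± 0.68). DIS3L (14.4 CPM per kb) and DIS3 (8.17) then had lower means than every ring and cap subunit except EXOSC6. The range of DIS3L (12.5 to 15.99) overlapped those of EXOSC2 (14.31 to 17.57), EXOSC3 (15.5 to 20.61) and EXOSC4 (13.54 to 20.8). EXOSC8 has 13.1 kb of merged exons and a MANE transcript of 1.17 kb. Levels of EXOSC8 per length therefore cannot be placed in this order without knowing which transcripts were counted.

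**Figure D1:**
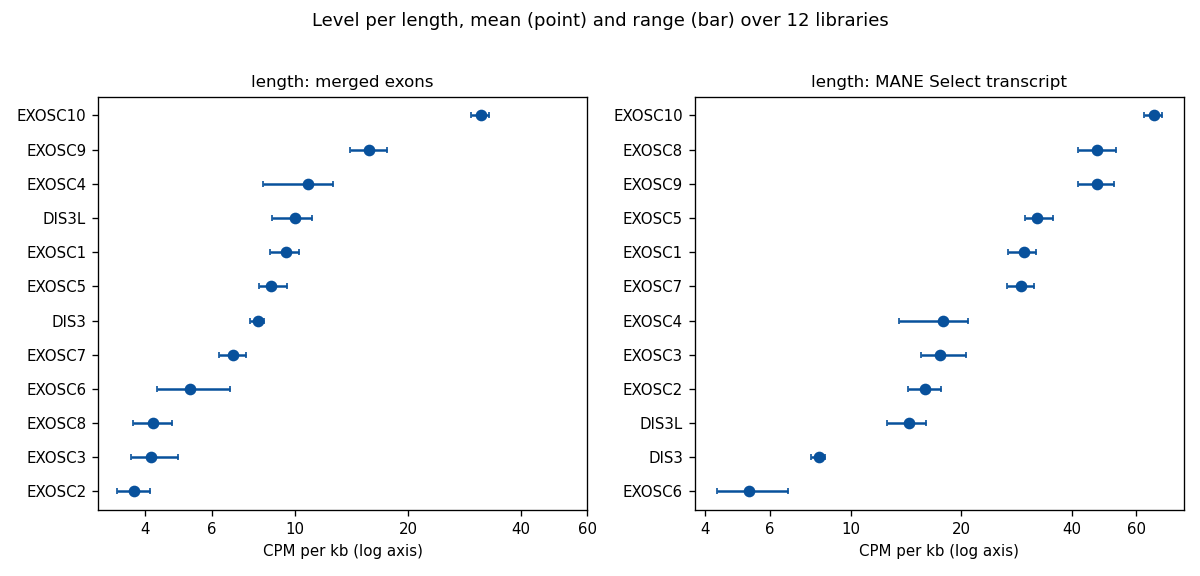
Level per length of the 10 members, DIS3 and DIS3L in CPM per kb on log axes, with the mean (point) and range (bar) over 12 libraries, for merged exons on the left and MANE Select transcripts on the right. EXOSC10 leads in both panels, at 31.3 and 67.0 CPM per kb, while EXOSC8 moves from 4.18 to 47.0.

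After 1 h of SCF, as an average over both guides, EXOSC2 rose 1.14-fold and EXOSC7 rose 1.11-fold. EXOSC2 is a cap subunit with an S1 and a KH domain, and EXOSC7 is a ring subunit. EXOSC3, EXOSC4 and EXOSC6 had values of like or larger size that missed the test, and EXOSC10 had a value in the opposite direction that missed it too. In edgeR, 9.03% of all tested genes (1399 of 15492) passed at an adjusted p under 0.05 for this average, 865 of them upward, beside 2 of the 10 members, both upward. The median log2 fold change of the members was 0.12 and that of all tested genes was -0.0045. The summed erythroid markers, measured for comparison, went from 13912 to 15669 CPM with PBS to 12985 to 14167 CPM with SCF in sgControl cells, and from 14270 to 15161 CPM to 12641 to 13205 CPM in sgEGR1 cells. Their part in the SCF results was not tested. In such bulk RNA, fewer cells of a kind and less RNA per cell cannot be told apart.

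EXOSC2 (chr9:130693721-130707288, plus strand in GENCODE v44) measured 29.9, 28.8 and 30.4 CPM in sgControl PBS and 35.0, 34.9 and 34.1 CPM in sgControl SCF. In sgEGR1 cells it measured 29.1, 30.0 and 30.8 CPM with PBS and 31.5, 33.8 and 35.3 CPM with SCF. Every SCF library lay above every PBS library, across both guides. The share of all tested genes separated across both guides was not counted, here or for EXOSC7 and EXOSC10 below. The average response was 1.14-fold (95% interval 1.08 to 1.21, log2 0.19 ± 0.039 SE, adjusted p = 0.00867), and it passed the test in all 31 alternative fits, with adjusted p from 0.00103 to 0.0246. By guide the log2 fold change was 0.22 ± 0.055 in sgControl cells (adjusted p = 0.0553) and 0.16 ± 0.055 in sgEGR1 cells (adjusted p = 0.166). With a term for replicate 1 in the model, the sgControl response also passed (adjusted p = 0.016), as it did without sgEGR1 SCF replicate 1 (adjusted p = 0.0438). Its exons overlap no other annotated gene.

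EXOSC7 (chr3:44975241-45036066, plus strand) measured 27.8, 29.4 and 29.6 CPM in sgControl PBS and 31.8, 31.2 and 32.5 CPM in sgControl SCF. With sgEGR1 it went from 28.1, 29.7 and 27.9 CPM to 31.9, 31.1 and 32.9 CPM. The 6 SCF libraries again lay above the 6 PBS libraries. The average response was 1.11-fold (95% interval 1.05 to 1.17, log2 0.15 ± 0.037 SE, adjusted p = 0.0255). This call was lost when sgControl PBS replicate 1, sgControl SCF replicate 3, sgEGR1 PBS replicate 1, sgEGR1 PBS replicate 3 or sgEGR1 SCF replicate 3 was left out, and when replicate 1 was left out of all groups, with adjusted p up to 0.103. It held in all 12 fits that left out a library with a term for replicate 1. CLEC3B shares 13.6% of the annotated exon bases of EXOSC7 on the same strand.

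EXOSC3, the third cap subunit, measured 28.8, 32.6 and 28.7 CPM in sgControl PBS and 32.5, 35.2 and 37.4 CPM in sgControl SCF. In sgEGR1 cells it measured 28.4, 29.0 and 29.6 CPM with PBS and 28.1, 34.9 and 35.6 CPM with SCF. The groups overlapped in both pairs, and in sgEGR1 SCF the low value was replicate 1. The average log2 fold change was 0.20 ± 0.064 (adjusted p = 0.0755), and with a term for replicate 1 it was 0.20 ± 0.047 (adjusted p = 0.00948). Without sgEGR1 SCF replicate 1 it passed too (adjusted p = 0.0116). The pseudogene EXOSC3P1, which could share reads with it, measured 1.84 to 3.1 CPM.

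EXOSC4, a ring subunit, measured 14.8, 14.8 and 11.4 CPM in sgControl PBS and 14.9, 15.9 and 15.1 CPM in sgControl SCF. In sgEGR1 cells it went from 13.4, 13.3 and 14.97 CPM to 16.2, 17.5 and 17.5 CPM. The groups did not overlap in either pair, although the sgControl libraries were separated by a narrow gap apart from PBS replicate 3. The average response was 1.17-fold (95% interval 1.05 to 1.30, adjusted p = 0.069), and it passed with a term for replicate 1 (adjusted p = 0.0334). Other annotated genes on the same strand share 61.7% of its exon bases, so its counts are uncertain.

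EXOSC6, a ring subunit encoded by a single annotated transcript, had an average log2 fold change of 0.20 ± 0.09 (adjusted p = 0.222). In sgEGR1 cells its 3 SCF libraries (29.0, 27.9 and 31.0 CPM) lay above the 3 PBS libraries (25.3, 24.3 and 25.1 CPM), while in sgControl cells the wide spread after SCF covered the PBS range of 24.1 to 28.2 CPM. Without sgControl SCF replicate 3 the average reached 0.27 and passed the test (adjusted p = 0.0216), and the sgControl value changed sign without sgControl SCF replicate 1. EXOSC9, of the ring, had an average log2 fold change of 0.08 (0.082 ± 0.043, adjusted p = 0.296). The remaining ring subunits EXOSC5 and EXOSC8 and the cap subunit EXOSC1 had average folds of 1.01 (95% interval 0.947 to 1.09), 1.005 (0.915 to 1.10) and 0.998 (0.928 to 1.07).

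EXOSC10 was the member with a lower mean after SCF under both guides. It measured 188, 194 and 197 CPM in sgControl PBS and 176, 186 and 181 CPM in sgControl SCF. In sgEGR1 cells it measured 195, 194 and 193 CPM with PBS and 176, 188 and 183 CPM with SCF. All 6 SCF libraries lay below all 6 PBS libraries, a separation whose share over all tested genes was not counted. The average response was 0.939-fold (95% interval 0.901 to 0.979, log2 -0.09 ± 0.028 SE, adjusted p = 0.0632). It missed the test in the fit of groups alone and passed it with a term for replicate 1 (adjusted p = 0.0108), with the replicate block, with DESeq2 and with upper-quartile scaling. Its share of the summed CPM of the 10 members was 37.4 ± 0.885% in sgControl PBS and 34.5 ± 0.724% in sgControl SCF, and 38.0 ± 0.115% and 34.8 ± 0.695% in the sgEGR1 groups (SD, n = 3). Genes on the opposite strand cover 39.1% of its annotated exon bases, and of these the antisense gene EXOSC10-AS1 had at most 0.542 CPM.

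The other nucleases showed no called response. DIS3, a nuclease with exonuclease and endonuclease activity, had an average fold of 1.01 (95% interval 0.957 to 1.06), and DIS3L, its cytoplasmic relative, had 0.972 (0.873 to 1.08).

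**Figure D2:**
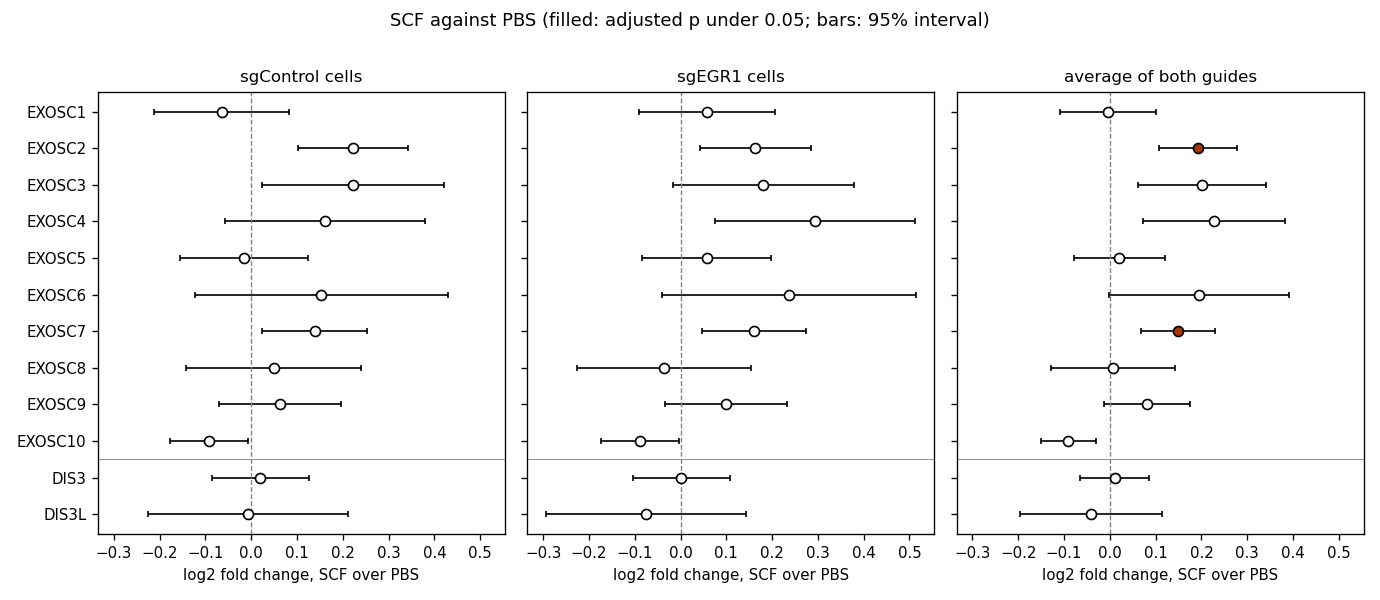
Log2 fold change of SCF over PBS for the 10 members, DIS3 and DIS3L in sgControl cells, in sgEGR1 cells and averaged over both guides, with 95% intervals from edgeR. EXOSC2 (0.19) and EXOSC7 (0.15) are filled in the average panel, where their adjusted p is under 0.05, and EXOSC10 lies at -0.09.

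Within a single guide, 0 of 10 members passed in edgeR for the SCF response. In sgControl cells 2.89% of tested genes passed (448). An unadjusted p under 0.05 was reached by 4 members (EXOSC2, EXOSC3 and EXOSC7 upward and EXOSC10 downward), beside 2222 of 15492 tested genes. In sgEGR1 cells 2.59% passed (402). There, 4 members had an unadjusted p under 0.05 (EXOSC2, EXOSC4 and EXOSC7 upward and EXOSC10 downward), beside 2328 of 15492 tested genes. Left-out libraries moved the counts of all genes that passed to 194 to 448 in sgControl cells, and to 176 to 428 in sgEGR1 cells. They fell by over 1.5 times without each library of the guide compared, apart from its PBS replicate 1, to 194 without sgControl PBS replicate 3 and 176 without sgEGR1 PBS replicate 2. DESeq2 called EXOSC2 in sgControl cells, beside 759 of 15492 tested genes, and 0 members in sgEGR1 cells, beside 770. Counted without a test, the SCF libraries lay wholly above the PBS libraries for EXOSC2, EXOSC4 and EXOSC7 in sgControl cells, beside 10.4% of all tested genes, and for EXOSC2, EXOSC4, EXOSC6, EXOSC7 and EXOSC9 in sgEGR1 cells, beside 11.2%. EXOSC10 lay wholly below in both, beside 9.24% of genes in sgControl cells and 10% in sgEGR1 cells.

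A term for replicate 1, which stands for the shift of that replicate in every group, raised the number of calls. With it, 5 of 10 members passed for the average response, EXOSC2, EXOSC3, EXOSC4 and EXOSC7 upward and EXOSC10 downward, beside 18.5% of all tested genes (2868). A replicate block, with a term for each replicate number, called the same 5 members. In sgControl cells the replicate 1 term called EXOSC2, beside 8.32% of genes, and in sgEGR1 cells it called 0 members, beside 8.56%.

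**Figure D3:**
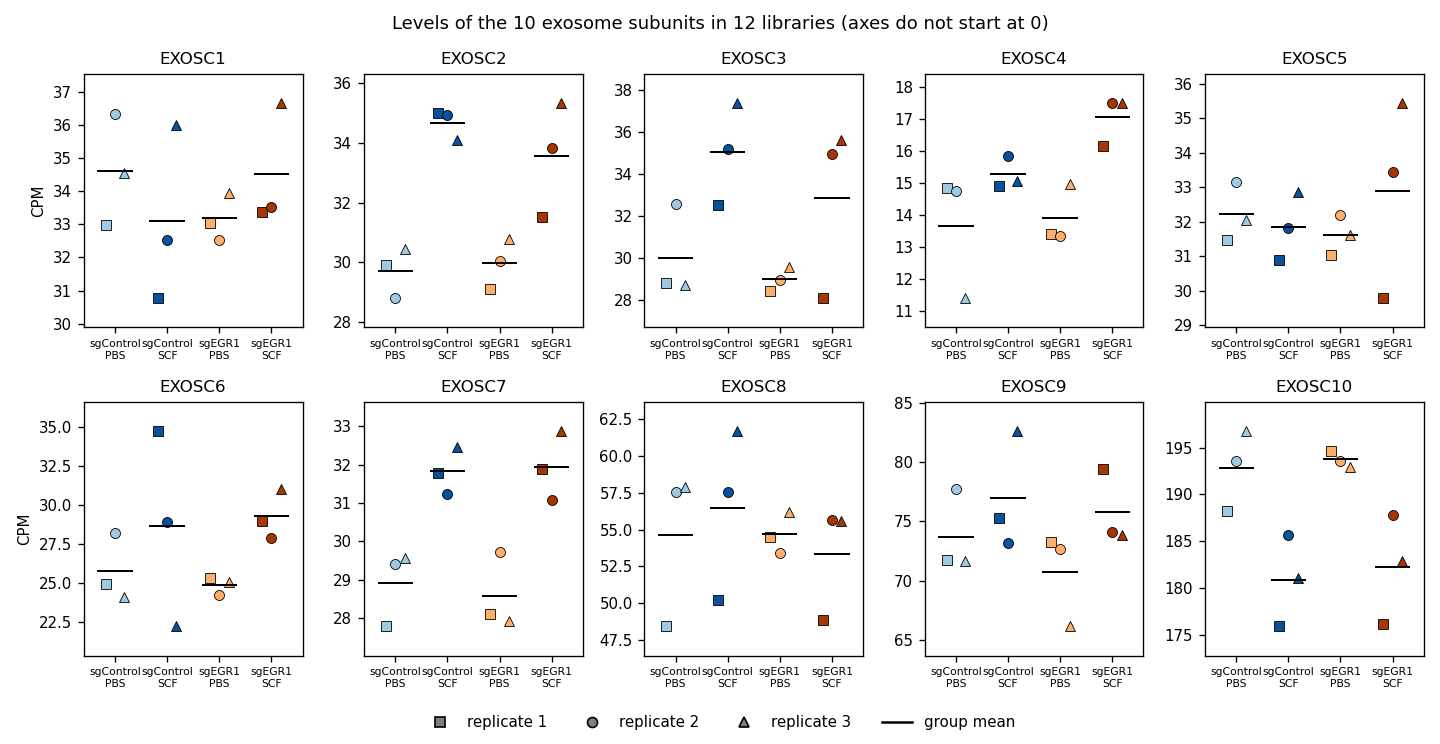
CPM of the 10 members in each of the 12 libraries, by group, with a square for replicate 1, a circle for replicate 2, a triangle for replicate 3 and a line for the group mean (axes do not start at 0). The SCF libraries lie above the PBS libraries for EXOSC2 and EXOSC7 and below them for EXOSC10, and replicate 1 is lowest in 3 of 4 groups for EXOSC8.

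The guide at EGR1 was not accompanied by a detected change in any subunit. After PBS, 0 of 10 members passed, and 0% of tested genes did (0 of 15492 in edgeR, with 715 at an unadjusted p under 0.05, 20 called by DESeq2 and 2 with the replicate block). EGR1 itself did not pass in edgeR after PBS or after SCF, although every sgEGR1 PBS library lay below every sgControl PBS library for it. The lack of calls between the guides therefore does not show that a gene was unchanged. The members' log2 fold changes of sgEGR1 over sgControl lay between -0.06 (EXOSC1) and 0.02 (EXOSC4, 0.025), and all had an unadjusted p above 0.05. The widest interval was that of EXOSC6, from 0.796-fold to 1.17-fold, and the narrowest that of EXOSC10, from 0.947-fold to 1.07-fold. No member separated the groups, beside 9.31% of genes that did in either direction.

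After SCF, 0 members and 0% of genes passed as well (361 genes at an unadjusted p under 0.05, 5 called by DESeq2 and 2 with the replicate block), and the members lay between -0.09 (EXOSC3) and 0.16 (EXOSC4). EXOSC4 was the member whose sgEGR1 libraries (16.2, 17.5 and 17.5 CPM) all lay above the sgControl libraries (14.9, 15.9 and 15.1 CPM), beside 3.61% of genes that lay wholly higher and 3.53% wholly lower. Its adjusted p was 1.00 (unadjusted p = 0.136), and DESeq2 and the replicate block called 0 members in either guide comparison. EXOSC2 (0.968-fold, 95% interval 0.891 to 1.05) and EXOSC7 (1.004-fold, 0.928 to 1.09) did not differ beyond their intervals.

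The SCF response of the members also could not be shown to differ between the guides. The interaction, that is the sgEGR1 response with the sgControl response subtracted, passed for 0 members and 0% of genes in edgeR (306 at an unadjusted p under 0.05, and 4 called by DESeq2). Its log2 values ran from -0.08 (EXOSC8, -0.085 ± 0.124) to 0.13 (EXOSC4, 0.13 ± 0.142). For EXOSC2 it was -0.06 (95% interval -0.23 to 0.11), for EXOSC7 0.02 (-0.14 to 0.18) and for EXOSC10 0.0044 (-0.12 to 0.12). Without the library labelled sgEGR1 SCF replicate 3, 0 members passed in either guide comparison or in the interaction.

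Replicate 1 differed from replicates 2 and 3 in 26.6% of tested genes (4116), and 2 of 10 members passed, both lower in replicate 1. EXOSC8 was lower by a log2 fold change of -0.17 ± 0.041 (adjusted p = 0.00657). It measured 48.4, 57.5 and 57.9 CPM in sgControl PBS, 50.2, 57.5 and 61.7 CPM in sgControl SCF, 54.5, 53.4 and 56.2 CPM in sgEGR1 PBS, and 48.8, 55.7 and 55.5 CPM in sgEGR1 SCF, so the gap was absent in sgEGR1 PBS. EXOSC3 was lower by -0.16 ± 0.05 (adjusted p = 0.0354), a call that 7 of 16 alternatives kept, while EXOSC8 was called in all 16. DIS3 (-0.09, adjusted p = 0.0191) and DIS3L (-0.23, adjusted p = 0.000184) were also lower in replicate 1. The labels give no batch for the replicate numbers. PTPRC, ITGA2B and EPCAM, the tested genes from the list of markers of other cell types, had counts in every library. They were lower in replicate 1 as well, with log2 values from -0.93 to -0.2. Whether their RNA came from other cells was not tested, nor was their part in the subunits' shift.

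**Figure D4:**
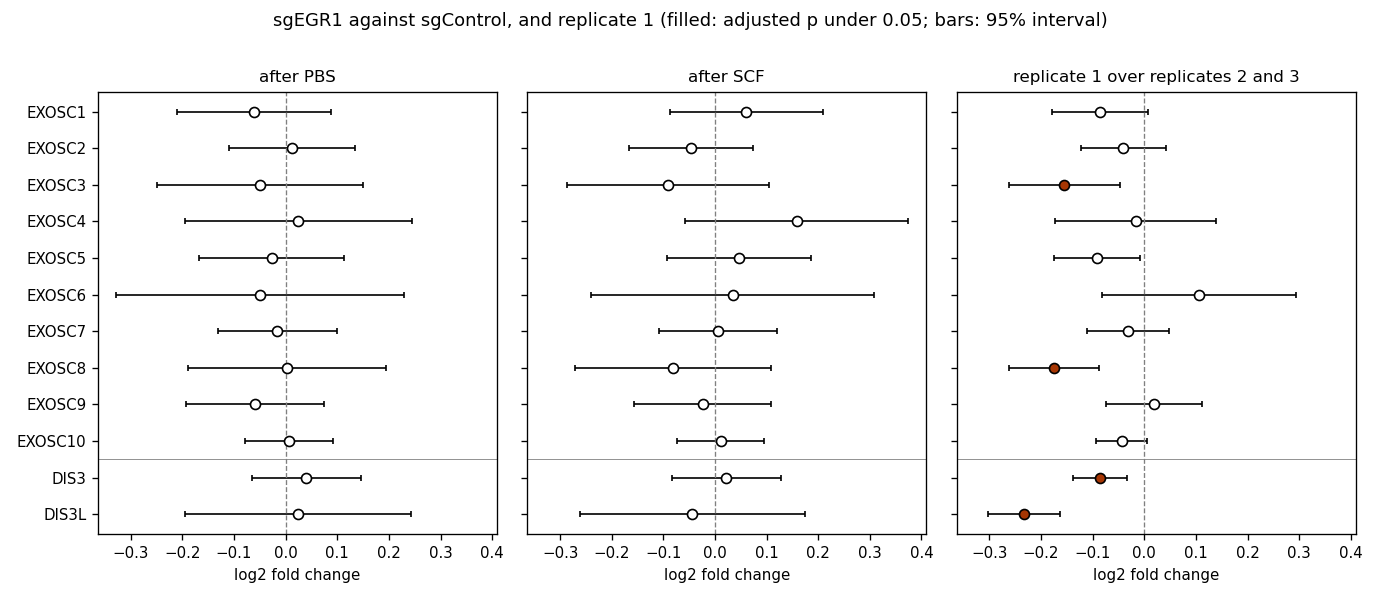
Log2 fold change of sgEGR1 over sgControl after PBS and after SCF, and of replicate 1 over replicates 2 and 3, for the 10 members, DIS3 and DIS3L, with 95% intervals from edgeR. All intervals of the guide comparisons cover 0, and filled points mark EXOSC3, EXOSC8, DIS3 and DIS3L in replicate 1.

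Genes that work with the exosome were compared from lists of its cofactors and of other decay enzymes. Of 13 nuclear cofactors, all 13 tested, 2 fell with SCF on average and 0 rose, beside 9.03% of all tested genes called in either direction. ZCCHC8, a subunit of the NEXT complex that brings the exosome to short-lived nuclear RNA, fell by 0.29 on the log2 scale (adjusted p = 0.00419). NVL, an ATPase of ribosome assembly that binds the exosome helicase MTREX, fell by 0.17 (adjusted p = 0.0285). The median of the list was -0.012. The ZCCHC8 average held in all 31 alternatives, while NVL lost its call without sgControl PBS replicates 2 or 3, sgControl SCF replicates 1 or 2, sgEGR1 PBS replicates 2 or 3, or sgEGR1 SCF replicates 1 or 2, and with no filter on low counts (adjusted p up to 0.0834). With the term for replicate 1, beside 18.5% of all tested genes, ZCCHC7 and ZFC3H1 were called too, with log2 values of -0.16 (adjusted p = 0.00614) and -0.13 (adjusted p = 0.00848), and TENT4A was called upward at 0.20 (adjusted p = 0.00149). The replicate block called the same 5 nuclear cofactors. Of 4 cytoplasmic cofactors (the Ski complex subunits and HBS1L), 0 passed for SCF, with a median of 0.02, although SKIC2 (SKIV2L in the table) had only 0 to 15 counts in a library and was called upward with the term for replicate 1 (adjusted p = 0.0363) and with the block (adjusted p = 0.0495).

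ZCCHC8 measured 77.1, 87.2 and 86.2 CPM in sgControl PBS and 62.2, 73.1 and 75.4 CPM in sgControl SCF. In sgEGR1 cells it measured 79.8, 84.7 and 81.3 CPM with PBS and 62.9, 68.0 and 65.2 CPM with SCF. The groups did not overlap in either pair, and ZCCHC8 also passed within sgEGR1 cells (log2 -0.33 ± 0.072, adjusted p = 0.035). In sgControl cells it missed the test (adjusted p = 0.0989).

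Of 15 other RNA decay enzymes, all tested, 2 fell with SCF on average and 0 rose, with a list median of -0.063, beside the same 9.03% of all genes. PARN, 1 of the 15, had only 0 to 28 counts in a library, so its lack of a call says little. With the term for replicate 1 (18.5% of all genes) and with the replicate block, DCP1B was called downward and DCP1A upward as well, at log2 values of -0.18 and 0.17 (adjusted p = 0.00198 and 0.00143 with the term). UPF1, the helicase of nonsense-mediated decay, measured 251, 270 and 268 CPM in sgControl PBS and 223, 239 and 223 CPM in sgControl SCF. In sgEGR1 cells it went from 262, 281 and 275 CPM to 219, 240 and 232 CPM. Its average log2 fold change was -0.22 ± 0.035 (adjusted p = 0.00209). XRN1, the cytoplasmic nuclease that degrades RNA from the 5′ end, had -0.21 ± 0.042 (adjusted p = 0.00775). Both also passed within sgEGR1 cells (adjusted p = 0.0235 for UPF1 and 0.0373 for XRN1), and missed the test in sgControl cells (adjusted p = 0.0536 and 0.221). The interaction called none of ZCCHC8, UPF1 and XRN1. Their average calls held in all 31 alternatives. The calls of ZCCHC8, UPF1 and XRN1 within sgEGR1 cells were each lost without sgEGR1 PBS replicates 2 or 3 or sgEGR1 SCF replicates 1 or 3, with adjusted p up to 0.149, 0.116 and 0.178. Those of ZCCHC8 and XRN1 were also lost without sgControl SCF replicate 2, sgEGR1 PBS replicate 1 or sgEGR1 SCF replicate 2, that of ZCCHC8 without sgControl PBS replicate 3, and that of XRN1 without sgControl PBS replicate 1 or sgControl SCF replicate 3. With no filter on low counts those of ZCCHC8 (adjusted p = 0.0509) and XRN1 (0.0662) were lost, and with the compared groups alone those of UPF1 (0.0563) and XRN1 (0.0758). With the term for replicate 1, the call of XRN1 was lost without sgEGR1 PBS replicate 2 (0.0661) or sgEGR1 SCF replicate 3 (0.0584).

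Of 4 erythroid regulators linked to the exosome, 2 fell with SCF on average, beside 9.03% of all tested genes called in either direction. FOXO3, a forkhead factor restrained by Kit signalling, fell by 0.19 on the log2 scale (adjusted p = 0.0195), from 157 to 185 CPM over the PBS libraries to 141 to 163 CPM over the SCF libraries, which overlapped. EPOR, the erythropoietin receptor, fell by 0.14 (adjusted p = 0.036). FOXO3 lost its call without sgControl SCF replicates 1 or 3, sgEGR1 PBS replicates 2 or 3 or sgEGR1 SCF replicate 2 (adjusted p up to 0.0588), and EPOR lost it without each of 10 of the 12 libraries (all but sgControl PBS replicate 1 and sgEGR1 SCF replicate 2) and with no filter on low counts, with adjusted p up to 0.0881. KIT, the SCF receptor, had a log2 fold change of -0.04 (adjusted p = 0.575), and GATA1 had -0.06 (adjusted p = 0.392). Within sgControl cells, the term for replicate 1 (8.32% of all genes) and the replicate block both called ZCCHC8, DCP1B and UPF1 downward and TENT4A and DCP1A upward, and the term also EPOR downward. Within sgEGR1 cells, the term (8.56% of all genes) and the block both called ZCCHC7, ZCCHC8, ZFC3H1, NVL, XRN1, UPF1, FOXO3 and EPOR downward and SKIV2L and DCP1A upward, and the term also TENT4A upward. In the comparisons of the guides and the interaction, 0 genes of these 4 lists passed. Between replicate 1 and the others, 26.6% of all tested genes passed, and 6 nuclear cofactors did. C1D, MTREX, ZCCHC7, ZCCHC8 and WDR74 were lower and TENT4A was higher in replicate 1. Also lower were the cytoplasmic cofactors TTC37, WDR61 and HBS1L, the decay factors XRN2, DCP1A, DCP1B, DCP2, CNOT7, CNOT8 and UPF1, and GATA1 and EPOR, while CNOT6L was higher.

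Across the 12 libraries the members did not move as a block. The Pearson correlation of log2 CPM of each member with the mean of the other 9 was 0.887 for EXOSC3, 0.676 for EXOSC5, 0.659 for EXOSC7, 0.565 for EXOSC2, 0.106 for EXOSC6 and -0.496 for EXOSC10. These points share the treatment and the shift of replicate 1, and no test was made. After group means and the replicate 1 shift were removed, EXOSC5 (0.806) and EXOSC3 (0.799) had the highest values, and EXOSC2 (-0.117) and EXOSC7 (-0.044) were near 0. Of 8707 other genes with at least 10 CPM on average, those most like the members' mean over the 12 libraries were EBNA1BP2 (r = 0.951), MRPS7 (0.926), MCM7 (0.918), NIFK (0.915) and DERL1 (0.913). After the same removal they were COPS6 (0.97), KIF22 (0.951) and FRAT2 (0.942). Both sets of genes were picked as the highest of 8707 values over 12 libraries, and their likeness was not tested.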

How the data were processed

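RNA-seq of 12 HUDEP-2 libraries was analysed. Per the study's methods, paired-end reads were aligned to hg38 with HISAT, and the authors deposited a table of StringTie estimated counts for genes, neither scaled nor pooled. The annotation release, the handling of multi-mapping reads and the use of strand in counting are not given in the sources used here, and the library kit differs between labels and methods. The table's guide code was read as sgEGR1, the sole construct in the labels apart from the scrambled one. Of the deposited values, 0 were not whole numbers, and 0 columns of other samples were present. No replicate pair agreed within sampling noise (chi-square per degree of freedom of at least 4.28).

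Counts were tested in R 4.3.3 by edgeR 4.0.16 (quasi-likelihood), with TMM scaling, the filterByExpr filter, 1 coefficient per group, all 12 libraries and Benjamini-Hochberg adjustment over 15492 genes. Genes were called at an adjusted p under 0.05, and intervals are 95% t intervals of the moderated fit. Fits were also run on simulated counts, which held no shift of replicate 1, so that check does not cover the shift seen in these data. P-values measure the spread between these libraries, each with 294 to 5856 counts per member. Gene models came from GENCODE v44, on the build of the files, and promoters from RefSeq. Alternatives were DESeq2 1.42.0, other scalings, no filter, a term for replicate 1, a replicate block, replicates 2 and 3 alone, the compared groups alone and each library left out.

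The members and lists were chosen with earlier results of these data known. All 10 members and the nucleases were named in the comparisons, and of the lists any called gene plus KIT, GATA1 and FOXO3. Residuals of same-numbered libraries correlated at 0.161 to 0.419 between guides for each replicate number, and at 0.0694 to 0.417 between treatments, so the block is given beside the calls it changed.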

Additional observations from a re-analysis of the deposited data

How the results depend on the processing

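EXOSC2 kept its average SCF call in all 31 alternatives, and 0 members passed in the comparisons of the guides and in the interaction in any alternative. For the average response, where 2 members passed, DESeq2, the term for replicate 1 and the replicate block each called 5 (EXOSC2, EXOSC3, EXOSC4, EXOSC7 and EXOSC10), and leaving out each library gave 1 to 3, or 4 to 5 together with the term. Over all 15492 tested genes, calls for the average went from 1399 to 2868 with the term, 2799 with the block and 1790 with DESeq2. Leaving out each library gave 1032 to 1408 genes for the average, or 2217 to 2718 together with the term. In sgControl cells, calls over all genes went from 448 to 1289 with the term, 1184 with the block, 759 with DESeq2 and 192 with the compared groups alone. In sgEGR1 cells they went from 402 to 1326, 1235, 770 and 250, and replicates 2 and 3 alone gave 690. Between the guides, calls over all genes were 0 to 51 after PBS and 0 to 38 after SCF over all alternatives, both highest with the term for replicate 1 and without sgEGR1 SCF replicate 3, and 0 to 4 for the interaction. In sgControl cells, where 0 passed, DESeq2, the term for replicate 1 and the replicate block each called 1 (EXOSC2), and leaving out each library gave 0 to 1 (EXOSC2 without sgEGR1 SCF replicate 1), or 0 to 2 together with the term (EXOSC2 and EXOSC3 without the same library). In sgEGR1 cells, where 0 passed, leaving out each library gave 0, or 0 to 2 together with the term, with a call in 2 of those fits (EXOSC4 without sgControl PBS replicate 3, and EXOSC2 and EXOSC3 without sgEGR1 SCF replicate 1). For replicate 1, where 2 passed, upper-quartile scaling called 1 (EXOSC8) and leaving out each library gave 1 to 2. The cause was not tested. The replicate block changed no other count of members.

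Of 2060 member values under alternatives, 115 had another sign than the value reported, 0 of them called in either fit. Most moved by less than 1 SE. For the others, leaving out each library gave, on the log2 scale, -0.015 to 0.31 for EXOSC6 in sgControl cells with SCF (lowest without sgControl SCF replicate 1, and -0.030 with replicates 2 and 3 only). It gave -0.12 to 0.20 for EXOSC6 between the guides after SCF (lowest without sgControl SCF replicate 3) and -0.020 to 0.16 for EXOSC6 in replicate 1 (lowest without sgControl SCF replicate 1). It gave -0.10 to 0.12 for EXOSC4 between the guides after PBS (lowest without sgControl PBS replicate 3). Between the guides after SCF it gave -0.16 to 0.011 for EXOSC3 (highest without sgEGR1 SCF replicate 1) and -0.065 to 0.037 for EXOSC9 (highest without sgControl SCF replicate 3). In the order of levels per length, 4 of 10 members kept their place with the longest annotated transcript and 2 with the MANE Select transcript. The fits with a term for replicate 1 and a library left out, and the MANE lengths, were chosen after seeing the data. With 3 libraries a group, adjusted p-values of the called members lay within a range that single libraries could move past the threshold, except for EXOSC2 with SCF and EXOSC8 in replicate 1.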
